A study of Mus musculus with 4 samples.

Results

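Pax2, Pax8, Lhx1, Emx2, Sim1, Tfap2b, Wt1, Six2, Sall1 and Osr1 encode transcription factors of the kidney and its embryonic precursors. These 10 genes were taken by name from the 21887 protein-coding genes of the mouse autosomes and sex chromosomes, and all 10 were found in the gene table. Occupancy of RNA polymerase II (Pol II), the enzyme that transcribes protein-coding genes, was mapped by immunoprecipitating chromatin and sequencing the DNA from 4 organs of C57BL/6 mice, namely kidney, liver, lung and heart. Organs of 2 mice were flash frozen, crosslinked and sheared with PIXUL, a plate-based ultrasound instrument, and the chromatin was precipitated with antibody 4H8 against the C-terminal domain of Pol II. The series compared the binding of Pol II between these organs. No genotype, treatment, age or sex sets the groups apart in the labels, and the groups differ in organ only. Each organ has 1 list of called regions, n = 1, and the sources used here do not say whether it pools both mice. The lists are single, so no difference between organs has a replicate check and none was tested.

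The kidney forms from the intermediate mesoderm of the embryo, in which Osr1, Pax2, Pax8 and Lhx1 act early. Six2 keeps nephron progenitors from differentiating, Sall1 acts in the same progenitors, and Emx2 acts in the ureteric bud, the source of the collecting ducts. Wt1 is kept in podocytes of the adult glomerulus, Pax2 and Pax8 belong to the tubular epithelium, and Tfap2b encodes an AP-2 factor of the distal tubule. Sim1 encodes a factor of the bHLH-PAS family, best known from the hypothalamus and also known from kidney development. Progenitors marked by Six2 are used up around birth in the mouse, whereas adult tubules make up most of the organ.

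In the kidney list 6 of the 10 genes had at least 50% of their annotated span, introns included, inside called regions. They were Pax8, Emx2, Sall1 and Lhx1 at 100%, Tfap2b at 57.3% and Pax2 at 54.5%. Across all protein-coding genes 21.1% reached 50% in kidney. The liver list held 2 of the 10 at this level, Sall1 at 100% and Lhx1 at 62.3%, beside 21.9% of all genes. The heart list held Lhx1 alone at 56.9%, beside 16.1% of all genes, and the lung list held 0 of 10, with Lhx1 highest at 43.4%, beside 15.1%. The median covered percent of the 10 genes was 55.9% in the kidney list, 4.14% in that of heart, and 0% for liver and lung. Over all protein-coding genes the medians were 5.07%, 2.26%, 2.76% and 3.88% for kidney, heart, liver and lung. With only the 50% of each list that had the highest score, the kidney count was 3 of 10, since Sall1 fell to 0%, Tfap2b to 23.2% and Pax2 to 43.9%.

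Any called region in the span was found for 8 of 10 genes in kidney, where 61.0% of all genes had one. Heart had 6 such genes beside 57.0% of all genes, liver 4 beside 56.7%, and lung 2 beside 60.3%. Pax2, Pax8, Emx2 and Tfap2b reached 50% in kidney and stayed under it in heart, liver and lung, a pattern met by 3.52% of all genes. The kidney percentage was the highest of the 4 for these and for Lhx1 and Sim1, 6 of 10, against 18% of all genes. For Sim1 this order turned with the top-scoring 50% of each list, where kidney had 3.40%, lung 3.57% and liver 8.75%. Pax8 and Tfap2b had regions in their span in kidney and none in the other lists, as 2.17% of all genes did. Six2 had no region in any list, as did 28.0% of all genes. The absence of a region means that no stretch passed the caller's threshold, and does not show that polymerase was absent.

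**Figure D1:**
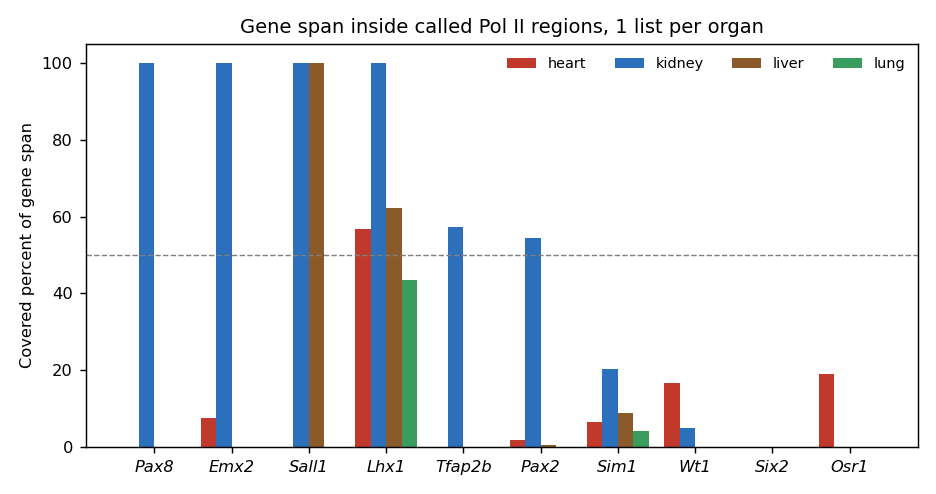
Percentage of each gene span (vertical axis) inside called Pol II regions, with 1 bar per organ list and a dashed line at 50%; genes are ordered by the kidney value. Kidney bars reach 100% for Pax8, Emx2, Sall1 and Lhx1, the liver bar does so for Sall1 alone, and Osr1 and Wt1 are higher in heart (18.98% and 16.5%) than in kidney (0% and 4.85%).

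Sequencing depth was 16589890.5 tags for kidney, 20058183 for liver, 13296938 for lung and 9880184 for heart. The lists held 61956 (liver) to 101051 (lung) regions. The share of tags inside regions, as the file headers give it, ran from 32.07% in lung to 55.14% in liver, with 44.07% in kidney and 46.3% in heart, so the lists differ in enrichment as well as in depth. Tag counts were scaled by the authors to 10000000 per list, and exact 95% Poisson intervals on them, which treat each tag as independent, cover counting error only. All 8 kidney marker genes, among them Slc34a1, Umod and Aqp2, were covered over at least 50% of their span in kidney, and so were 8 of 8 heart, liver and lung markers in the organ they belong to. Of the kidney markers 1 of 8 reached this level in each of the other lists. Of the 8 lung markers 2 did so in liver, Sftpc at 74.7% and Hopx at 100%, and 1 in heart. Sftpc had 23.7 tags per kb of span in liver and 22.9 in lung. Of the 8 heart markers 1 did so in liver, and the liver markers did so in no other list. A whole organ mixes many cell types, so a gene covered little in a list may be used by few cells or carry little polymerase per cell, which cannot be told apart.

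The bases just before the annotated starts of 6 of the genes are given here because the kidney regions of 5 of them run across these bases, while Six2 is the member with no region. Each run holds the 250 bases before the first start, 5′ to 3′ on the gene's strand, from RefSeq promoters of GRCm38.p6, the assembly behind mm10. The positions are chr2:24475600-24475849 (minus strand) for Pax8, chr19:44746351-44746600 (plus strand) for Pax2, chr19:59458440-59458689 (plus strand) for Emx2, chr11:84525535-84525784 (minus strand) for Lhx1, chr8:89044163-89044412 (minus strand) for Sall1 and chr17:85688255-85688504 (minus strand) for Six2. Capitals mark matches, on either strand, to the letters of the TATA box (TATAAA), the CCAAT box (CCAAT) and the GC box (GGGCGG).
Pax8: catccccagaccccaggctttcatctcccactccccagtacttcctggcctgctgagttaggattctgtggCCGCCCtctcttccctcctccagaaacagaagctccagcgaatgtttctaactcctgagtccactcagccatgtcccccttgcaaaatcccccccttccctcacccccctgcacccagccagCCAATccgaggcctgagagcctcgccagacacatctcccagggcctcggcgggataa
Pax2: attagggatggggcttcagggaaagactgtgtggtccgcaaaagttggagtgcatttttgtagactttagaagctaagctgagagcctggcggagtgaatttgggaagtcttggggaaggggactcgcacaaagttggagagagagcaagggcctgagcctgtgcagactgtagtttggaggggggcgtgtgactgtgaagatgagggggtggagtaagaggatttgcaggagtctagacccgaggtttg
Emx2: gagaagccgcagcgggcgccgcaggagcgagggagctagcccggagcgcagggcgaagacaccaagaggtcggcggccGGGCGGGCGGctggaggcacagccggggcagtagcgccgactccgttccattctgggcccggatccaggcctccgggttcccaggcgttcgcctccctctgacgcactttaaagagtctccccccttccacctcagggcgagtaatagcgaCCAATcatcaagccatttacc
Lhx1: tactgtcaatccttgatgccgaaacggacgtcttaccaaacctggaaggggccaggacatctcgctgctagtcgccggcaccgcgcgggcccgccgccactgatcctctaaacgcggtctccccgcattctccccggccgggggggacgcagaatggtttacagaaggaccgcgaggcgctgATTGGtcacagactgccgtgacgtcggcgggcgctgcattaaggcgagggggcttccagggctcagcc
Sall1: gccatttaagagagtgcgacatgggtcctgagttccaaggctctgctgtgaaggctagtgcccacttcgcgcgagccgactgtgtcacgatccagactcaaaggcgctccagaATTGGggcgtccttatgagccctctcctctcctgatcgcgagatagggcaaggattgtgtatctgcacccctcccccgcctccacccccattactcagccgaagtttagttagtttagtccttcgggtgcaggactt
Six2: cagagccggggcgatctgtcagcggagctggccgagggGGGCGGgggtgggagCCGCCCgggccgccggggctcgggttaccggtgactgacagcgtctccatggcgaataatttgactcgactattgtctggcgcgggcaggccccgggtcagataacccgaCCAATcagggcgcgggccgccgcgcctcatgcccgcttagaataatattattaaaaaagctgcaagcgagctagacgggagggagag

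The promoter table holds 12 starts for 8 of the 10 genes, namely 3 each for Pax2 and Sall1 and 1 each for Pax8, Lhx1, Emx2, Sim1, Tfap2b and Six2. All 250 bases before the start lay inside a kidney region for 11 of the 12, each but that of Six2, where 35.4% of all 32851 promoters did. In liver this held for 4 (those of Sim1 and Sall1), in heart for 1 (Lhx1) and in lung for 0, beside 35.6%, 30.1% and 30.4% of all promoters. The 3 starts of Pax2 share 1 kidney region, and the 3 of Sall1 share 1 region in kidney and 1 in liver. Starts that share a region are not separate observations. A region within 1 kb of a start was found for 7 of these 8 genes in kidney, against 54.8% of genes with a start, and for Lhx1, Sim1 and Sall1 in liver, against 51.4%. In heart and lung it was found for Lhx1 and Sim1, against 49.7% and 52.4%.

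Six2, the only promoter among the 12 without a kidney region, lay within the range of the others in GC content and CpG count. GC content of the 12 runs ranged from 45.6% (Sim1) to 78.4% (the third start of Sall1), where the median of all promoters was 52.4%. Six2, with no region, had 64.8% GC and 26 CpG pairs, the same values as Lhx1, which had a region in each list. Pax8 had 60.4% GC and 6 CpG pairs. GGGCGG stood in 7 of the 12 runs (32.7% of all promoters), CCAAT in 5 (33.8%) and TATAAA in that of Sim1 alone (12.4%), counting both strands. A match of letters is a description of the sequence and does not show that a factor binds there.

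Pax8, a paired-box factor of the nephric lineage that is also needed in the thyroid, had the highest kidney tags per kb of span of the 10 and was covered whole, as were Emx2, Sall1 and Lhx1. Its 55.0 kb span (chromosome 2, 24420551 to 24475599, minus strand, mm10) lay whole inside a single kidney region of 72.0 kb, from 24409067 to 24481060. That region began 5.46 kb before the annotated start and ran 11.5 kb past the other end, where it overlapped the neighbouring gene Psd4, and it also held the non-coding RNA gene Gm13415. It carried 2647.1 tags per 10000000 (interval 2570 to 2727), or 36.8 tags per kb, and ranked 45 of 88200 kidney regions by tags. Density was higher than in 99.7% of kidney regions, and the tags per kb of span were higher than in 98.9% of protein-coding genes. Heart, liver and lung had no region in Pax8. The nearest heart region lay 321 kb away, and the liver held a single region of 500 bp with 6.73 tags, 2.48 kb upstream of the gene and inside the stretch covered in kidney.

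The 50 kb on either side of Pax8 held 6 further kidney regions of 0.5 to 3.07 kb with 7.53 to 57.6 tags, none of which overlapped a region of another list. Of these, 5 lay upstream of the start. The 4 lung regions there were 0.5 to 1.23 kb long, held at least 8.27 tags each and lay beyond the 3′ end, over or next to Psd4. The next protein-coding gene upstream of Pax8, Cacna1b, lay 128 kb away and had 0% covered in kidney.

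Pax2, the close relative of Pax8 with a role in duct and tubule formation, was covered unevenly along its length. A kidney region of 34.7 kb (chromosome 19, 44731257 to 44765993) began 15.3 kb before the first start and ended 19.4 kb inside the gene, so that it spanned all 3 annotated starts (44746601, 44755752 and 44756906, plus strand). It held 1294.5 tags (interval 1241 to 1351), or 37.3 per kb, above 99.7% of kidney regions and close to the density at Pax8. It also covered the non-coding RNA gene Gm35610. The rest of the 91.7 kb span held 17 shorter kidney regions of 0.5 to 5.04 kb with 12.8 to 22.6 tags per kb, and none of the 17 overlapped a region of another organ. The last of them crossed the 3′ end of the gene, at 44837637 to 44839233.

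In the first 10 kb of Pax2 all bases were covered in kidney at 37.3 tags per kb, against 48.97% of the bases and 10.5 tags per kb in the rest of the span. A region's tags are shared evenly over its length, so 37.3 is the mean of the whole 34.7 kb region. Density within a region is not given by the lists. The other lists held little in this gene. Heart had 3 regions of 500 to 709 bp with 8.10 to 11.1 tags each, all within 12.2 kb of the first start, which covered 1.86% of the span. Liver had a single region of 500 bp with 7.48 tags, 3.96 kb from the start, and lung had none within 92.6 kb. All heart and liver regions in Pax2 lay inside the 34.7 kb kidney region. Kidney had 13.4 tags per kb of span (interval 12.8 to 14.0), liver 0.0816 (0.0457 to 0.135) and heart 0.331 (0.223 to 0.473), and these intervals do not overlap. In the kidney flank a second region of 7.16 kb with 149.5 tags ended 16.1 kb upstream of the first start.

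Emx2, a homeobox gene of the ureteric bud and of the cerebral cortex, is short (6.67 kb, chromosome 19, 59458690 to 59465357, plus strand) and lay inside a kidney region of 17.4 kb. That region ran from 59454323 to 59471705, 4.37 kb before the start to 6.35 kb past the end, and held 588.9 tags (interval 553 to 627), or 33.9 per kb. It also covered part of the antisense gene Emx2os, and reads of the 2 genes cannot be told apart in such data. In heart a single region of 500 bp with 10.1 tags lay 3.97 kb inside Emx2 and covered 7.50% of it. Liver and lung had no region in the gene. The lung region nearest to it was 111 kb away, and the liver had 1 region 49.4 kb away.

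Lhx1, a LIM homeobox gene of the nephric duct and early nephron, had regions in all 4 organs. In kidney its 7.56 kb (chromosome 11, 84517975 to 84525534, minus strand) lay in a region of 15.5 kb with 421.6 tags, from 84513347 to 84528825, which also reached Aatf and the non-coding RNA gene Lhx1os. Kidney had 27.2 tags per kb of span (interval 24.5 to 30.3). Heart had 10.8 (8.61 to 13.5), liver 10.6 (8.98 to 12.3) and lung 6.91 (5.34 to 8.69). The kidney interval lay above the other 3, whereas those of heart and liver overlapped each other, as did heart and lung by a narrow margin. Heart had 1 region in the gene, of 4.58 kb, which crossed the start by 0.276 kb. In liver 1 region began 0.577 kb inside the gene and another of 6.35 kb ran over the 3′ end toward Aatf, and lung had 3 regions in a like arrangement. Part of the gene near its start was thus called in every list, and of the 4 lists that of kidney called the whole gene as 1 unbroken region.

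Sall1, a zinc finger gene of the nephron progenitors, was the member shared by kidney and liver. Its 16.9 kb (chromosome 8, 89027242 to 89044162, minus strand) were covered over 100% in both, by a kidney region of 31.9 kb (89020207 to 89052074, 928.0 tags) and a liver region of 21.4 kb (89026415 to 89047817, 611.0 tags). Tags per kb of span were 29.1 in kidney (interval 27.1 to 31.2) and 28.5 in liver (26.8 to 30.4), and the intervals overlap. With the top-scoring 50% of each list neither organ kept a region in Sall1. The kidney region extended farther on both sides, 7.91 kb upstream and 7.04 kb past the end, against 3.66 kb and 0.827 kb in liver. Beyond the 3′ end a second kidney region of 17.3 kb with 428.6 tags (89001982 to 89019330) overlapped 3 liver regions, the longest of 9.98 kb with 253.5 tags. Each of the 6 liver regions in the flanks of Sall1 overlapped a kidney region. Heart and lung had no region within 294 kb of the gene.

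**Figure D2:**
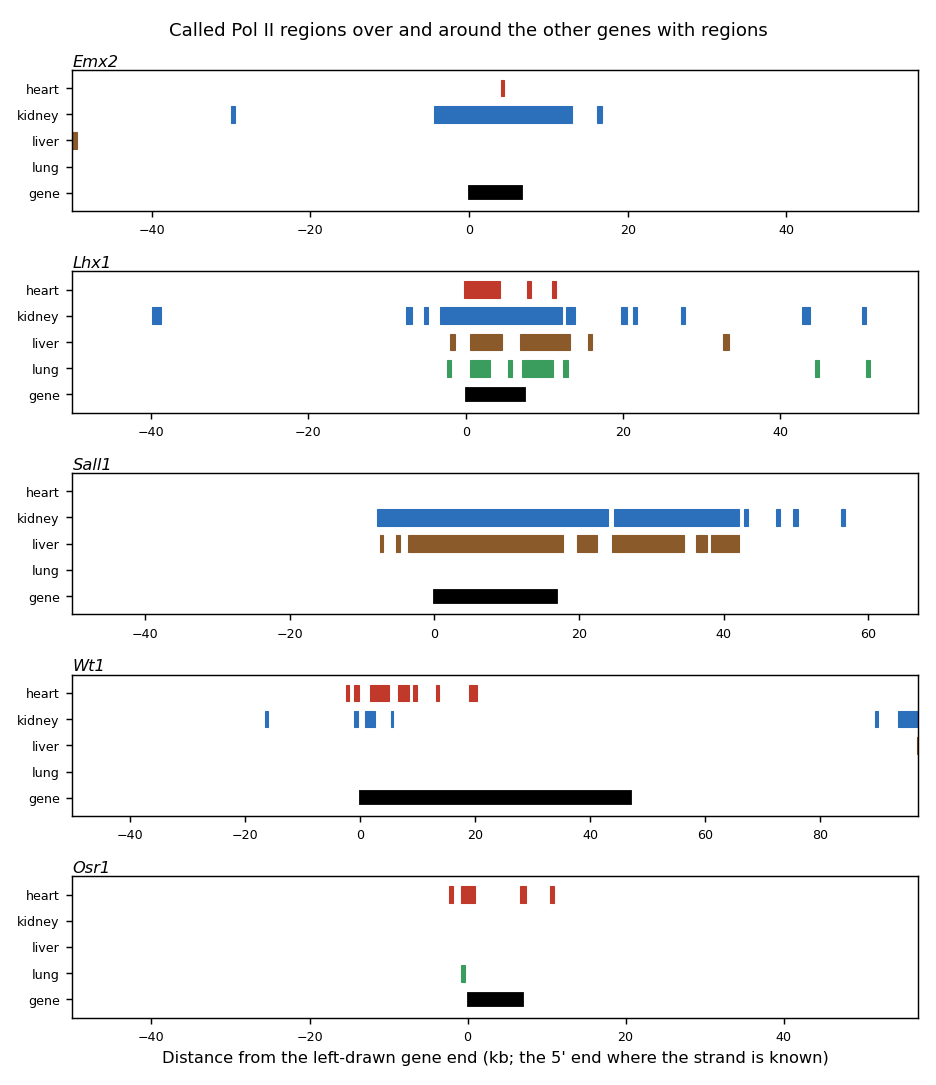
Called Pol II regions of each organ (coloured boxes, 1 row per organ) over Emx2, Lhx1, Sall1, Wt1 and Osr1 (black bars) and 50 kb on either side, with distance in kb on the horizontal axis. The left end of the black bar is the 5′ end for Emx2, Lhx1 and Sall1 and the lower coordinate for Wt1 and Osr1. A single kidney box spans each of the upper 3 genes, the liver box does so at Sall1, and the boxes inside Osr1 are those of the heart.

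Tfap2b, the AP-2 factor gene of the distal nephron, had called regions in kidney and none in the other lists, in the gene or in its flanks. The nearest region of another organ lay 831 kb away in liver, 1581 kb away in heart and 1582 kb away in lung. In kidney 9 regions covered 57.3% of its 29.9 kb (chromosome 1, 19208908 to 19238845, plus strand), of which the longest was 7.67 kb with 143.2 tags (19211731 to 19219397) and covered the start at 19212054. The density of the 9 was 14.2 to 25.5 tags per kb. This was lower than the 36.8 at Pax8, and the summed signal over the span was 11.4 tags per kb (interval 10.5 to 12.4), higher than in 81.1% of genes. The first 10 kb of the span were covered over 93.9%, against 38.9% in the rest. A further kidney region of 6.41 kb began 0.69 kb past the 3′ end. The paralog Tfap2d, 34.96 kb upstream, had 0% covered in each list, and the next gene on the other side, the tubule gene Pkhd1, 819 kb away, had 29.5% covered in kidney.

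Sim1 had its regions at the start of a 94.5 kb gene (chromosome 10, 50894698 to 50989156, plus strand) in every list. The kidney region of 19.7 kb (50890591 to 50910253, 594.9 tags, 30.3 per kb) began 4.11 kb before the gene and ended 15.6 kb inside it, and 3 shorter kidney regions reached to 31.96 kb. The span beyond that point held no region in any list. Liver had 2 regions in the first 8.81 kb, heart had 4 up to 18.1 kb and lung had 2 up to 9.54 kb, and each of these overlapped a kidney region. The first 10 kb were covered over 100% in kidney, 82.7% in liver, 55.5% in heart and 38.7% in lung, and held 30.3, 16.5, 12.3 and 6.24 tags per kb in that order. These densities share each region's tags evenly over its length, so the kidney value is the mean of the 19.7 kb region. In the rest of the gene the kidney value was 10.97%, the heart value 0.592%, and liver and lung were at 0%. The low covered percent of the whole gene, 20.4% in kidney, is that of a long gene covered at its start.

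A start-weighted cover was common among long genes in kidney. Of 5821 genes of at least 20 kb with a kidney region and an annotated start, 77.5% had a higher covered percent in the first 10 kb than in the rest, with medians of 32.7% and 9.07%. Pax2, Sim1 and Tfap2b were of this kind, and Pax8 was covered evenly over 100% of both parts.

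**Figure D3:**
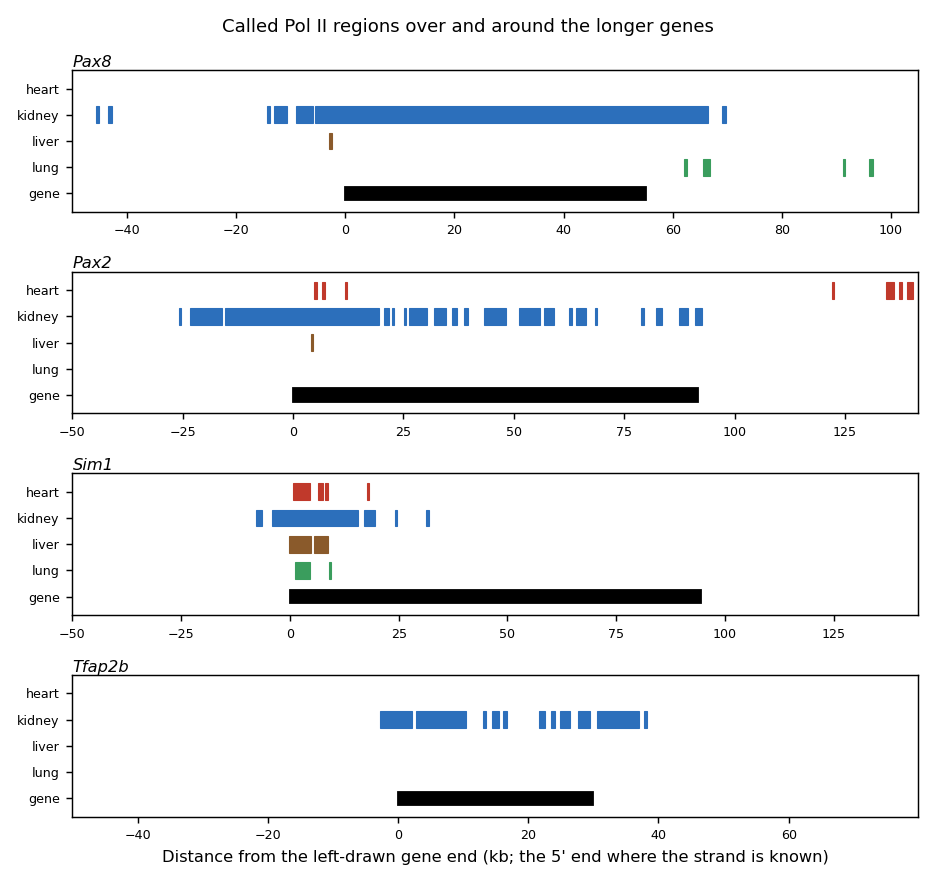
Called Pol II regions of each organ (coloured boxes, 1 row per organ) over Pax8, Pax2, Sim1 and Tfap2b (black bars, 5′ end at 0) and 50 kb on either side, with distance in kb on the horizontal axis. The kidney row is filled across Pax8, filled over the first 19.4 kb of Pax2 and broken after it, limited to the first 31.96 kb of Sim1, and the only row with boxes at Tfap2b.

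Wt1, a zinc finger gene that podocytes keep in the adult, was covered more in heart than in kidney. Heart held 5 regions in its 47.1 kb (chromosome 2, 105126529 to 105173614), from 105128239 to 105146798, of which the longest was 3.26 kb with 83.0 tags. Kidney held 2, of 1.78 kb at 14.0 tags per kb and of 500 bp at 17.5 tags per kb. The covered percent was 16.5% in heart and 4.85% in kidney, with 3.75 tags per kb of span in heart (interval 3.22 to 4.36) and 0.717 in kidney (0.542 to 0.931). Liver and lung had no region in Wt1. In kidney, 2 of the 4 flanking regions lay far from the gene, and the larger, 23.5 kb with 692.0 tags (105219997 to 105243476), began 46.4 kb past the higher-coordinate end and overlapped Them7. The liver had a region of 3.95 kb with 84.8 tags inside that stretch.

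The podocyte markers were low in the same kidney list. Of 6 podocyte genes 1 reached 50% in kidney and 3 did so in heart. The slit diaphragm gene Nphs1 was at 0% in both. Synpo was at 24.4% in kidney and 92.3% in heart, and Podxl at 11.8% in kidney and 95.01% in heart. The median over the list was 1.08 tags per kb of span in kidney and 7.72 in heart. Of 5 mesothelial genes none had a region in heart and 1 had one in kidney, beside 57.0% and 61.0% of all genes. Their part in the values of Wt1 was not tested.

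Osr1, the earliest of these genes in the intermediate mesoderm, had no region in kidney or liver, where the nearest lay 541 and 543 kb away. In heart 2 regions covered 18.98% of its 7.06 kb (chromosome 12, 9574442 to 9581500), of 1.83 kb with 33.4 tags (9573591 to 9575419) and of 0.724 kb with 14.2 tags (9581138 to 9581862), and 2 more of 500 bp lay within 3.37 kb. Lung had a region of 500 bp with 7.14 tags that ended 0.314 kb before the lower-coordinate end and overlapped the larger heart region. The median cover of 5 stromal markers was 32.1% in heart and 10.5% in kidney, and all 5 had a region in both. Tcf21 went the other way, with 54.9% in heart and 65.2% in kidney. Their part in the values of Osr1 was not tested.

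Six2, the progenitor gene, had no region in its 25.5 kb (chromosome 17, 85662736 to 85688254, minus strand) in any list. In kidney a single region of 650 bp with 10.8 tags (85624639 to 85625289) lay 37.4 kb away, over the neighbouring paralog Six3. In liver, lung and heart the nearest region was 193, 391 and 455 kb away. The lowest tag count of any kidney region was 5.42, and 3.49% of kidney regions held fewer than 7.23 tags. Signal under about 7.23 tags was thus seldom listed.

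**Figure D4:**
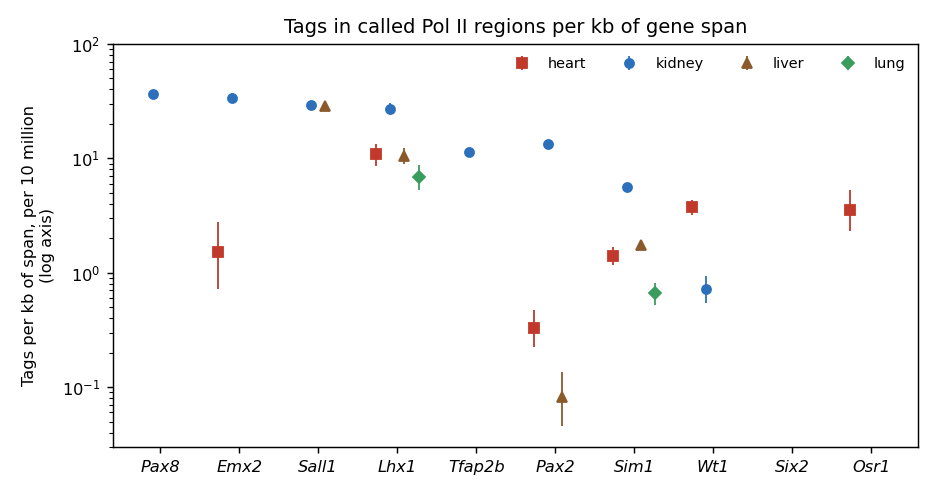
Tags in called regions per kb of gene span, scaled to 10000000 tags per list, on a log axis, with 1 symbol per organ and bars for the exact 95% Poisson interval; organs without a region in the gene have no symbol. Kidney symbols lie highest for Pax8, Emx2, Lhx1, Pax2, Tfap2b and Sim1, overlap liver at Sall1 (29.1 and 28.5), and lie under heart at Wt1.

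Ordered by tags per kb of span in kidney, the genes stood as Pax8 (36.8), Emx2 (33.9), Sall1 (29.1), Lhx1 (27.2), Pax2 (13.4), Tfap2b (11.4), Sim1 (5.63) and Wt1 (0.717), with Six2 and Osr1 without a region. By counting error alone, the intervals of Pax8 and Emx2 overlap, as do those of Emx2 and Sall1 and of Sall1 and Lhx1, whereas each later step is separated. The order depends on the regions kept. With the top-scoring 50% of the kidney list Sall1 and Wt1 had no region left, Tfap2b had 5.10 tags per kb of span and Sim1 0.562. Per kb of the regions themselves, in place of the span, the kidney values of Sim1 (28.1), Pax2 (27.4), Tfap2b (20.4) and Wt1 (14.8) were higher and closer to those of the genes covered whole. The kidney regions in the 10 spans numbered 37, and 29 of them overlapped no region of another list. Of these 29, 17 lay in Pax2 and 9 in Tfap2b. All 6 liver and all 5 lung regions in the spans overlapped one of another list, and 5 of the 16 heart regions did not. The same shares over the whole lists were not computed, so these counts have no background. Of the 37 kidney regions 6 were 10 kb or longer, compared with 4.06% of the whole kidney list, and 1 of the 6 liver regions was, compared with 7.08% of the liver list.

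Around the genes regions were few in number, and in heart, liver and lung they also covered little. The counts leave out regions that overlap the span itself, whereas the covered part includes the stretches of these in the flanks. The 50 kb flanks of the 10 genes held 32 kidney regions in all, 12 in liver, 10 in heart and 9 in lung. The median per gene was 2 in kidney, 0.5 in liver, and 0 in heart and lung, where all protein-coding genes had medians of 5, 3, 4 and 6. Of the 32 kidney regions in the flanks 27 overlapped no region of another list, and the share over the whole kidney list was not computed. The covered part of the flanks had a median of 10.8% in kidney, against 8.45% for all genes, and of 0.28% in liver and 0% in heart and lung, against 7.45%, 4.64% and 6.35%. In kidney the flanks were covered most at Sall1 (34.6%), Pax8 (24.6%) and Pax2 (23.97%). Among 3751 genes covered over 50% in kidney the median cover of the 10 kb upstream was 60.7%, where Pax2 had 100%, Pax8 85.3%, Sall1 79.1%, Lhx1 45.7%, Emx2 43.7% and Tfap2b 27.7%.

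The nearest protein-coding neighbours did not share the cover. None of the 20 neighbours, 1 on each side of each gene, reached 50% in kidney, liver or lung, and Mrm1, beyond Lhx1, did so in heart (51.0%). Their median in kidney was 5.37%, and the highest was 38.3%, also at Mrm1. The neighbours were far away, with a median distance of 149 kb and a range of 4.39 kb (Aatf and Lhx1) to 1203 kb (Tox3 and Sall1).

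Genes with the most similar values over the 4 lists were sought for each of the 9 members with a region, as those at the smallest Euclidean distance on log2(tags per kb of span + 1). For Pax8 these were Tmem174, Slc6a18 and Slc6a19, each at a distance of 0.03 and 37.5 tags per kb in kidney with none elsewhere. Slc6a18 and Slc6a19 share a region and encode amino acid transporters of the proximal tubule. For Emx2 they were Rnf183 (0.11), Hoxc9 (0.35) and Hoxc10 (0.40), the latter 2 in 1 region, and for Tfap2b Degs2, Elovl7 and Klk1, each within 0.02. Pax2 had Slc6a20b (0.24), Cyp2j11 (0.42) and Gm46913 (0.43), and Sall1 had Chdh (0.18), H2bc12 (0.20) and Cyp4a31 (0.32), all with regions in kidney and liver and none in heart or lung. Lhx1 stood next to Cd2bp2, Trip6 and Smndc1, and Sim1 to Fam133b, Cul9 and Klhl42, all with a region in each list. Wt1 stood next to Il27ra, Grip2 and Gnb4, and Osr1 next to Slurp2, Fabp9 and Asb5. With 4 values per gene, such likeness describes the pattern and nothing more.

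Other transcription factor genes of the kidney were also counted, from lists chosen with earlier results known. Of 49 genes in 5 groups, 32 reached 50% in kidney, against 12 in lung, 11 in liver and 9 in heart. Over all protein-coding genes the shares were 21.1%, 15.1%, 21.9% and 16.1% in that order. The liver count was thus near its share, and the same shares apply to the groups below. The medians of covered percent of the 49 genes were 71.3%, 15.6%, 0.803% and 8.78%. In 12 of the 49 the kidney alone reached 50%, beside 3.52% of all genes. Of these 12, 7 were Hox genes. The group of nephron progenitor and Hox genes had 8 of 10 members covered in kidney, led by Hoxb7, a gene of the ureteric bud and collecting duct (45.5 tags per kb of span), Hoxa11 (38.9) and Hoxd10 (32.4), with Eya1 (0.465%) and Meis1 (3.20%) the exceptions. Hoxd8, Hoxd10 and Hoxd11 lay in 1 kidney region and are not separate observations. Liver, lung and heart each held 1 of the 10.

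Factors of the proximal tubule were covered in liver as well as in kidney. Of 7, 6 reached 50% in kidney and 6 in liver, among them Maf at 100% in both with 29.96 tags per kb in kidney and 19.6 in liver, and Esrra at 100% in both with 43.2 and 26.96. No member was covered in kidney alone. Of 9 factors of the loop and distal tubule 6 were covered in kidney, 4 in lung, 2 in liver and 1 in heart. Pou3f3 was the member that reached 50% in kidney alone. Irx3 was at 100% in kidney, heart and lung, with 20.8, 24.4 and 23.9 tags per kb of span in that order. Foxq1 was at 100% in kidney and liver, with 17.2 and 31.6 tags per kb, and at 84.0% in lung.

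Of 11 collecting duct factors 6 were covered in kidney, 4 in lung, 1 in heart and 0 in liver. Tfcp2l1, which maintains collecting duct cells, was at 98.6% in kidney with 35.6 tags per kb and at 10.9% in lung, 0.873% in liver and 0% in heart. Gata2 was at 100% in kidney and lung and at 96.4% in heart, and Elf3 was at 100% in kidney and 81.5% in lung. Of 12 podocyte and stromal factors 6 were covered in kidney, 4 in heart, 2 in liver and 2 in lung. Nr2f2 was at 100% in kidney (36.4 tags per kb of span), 97.5% in liver, 95.7% in lung and 72.3% in heart. Foxd1 was at 100% in kidney (21.6 tags per kb), 36.1% in heart, 29.99% in lung and 0% in liver. Zeb2 and Foxd1 reached 50% in kidney alone. Tcf21 of this group also stands among the stromal markers above.

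**Figure D5:**
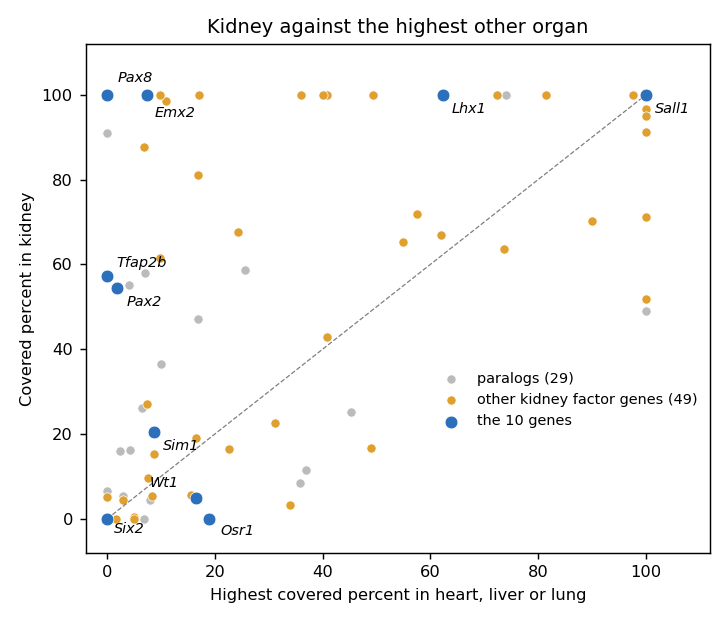
Covered percent in kidney (vertical axis) against the highest of heart, liver and lung (horizontal axis) for the 10 genes (blue), 49 other kidney factor genes (orange) and 29 paralogs (grey), each a point, with the line of equal values dashed. Pax8, Emx2, Tfap2b and Pax2 lie at the left edge well above the line, Sall1 lies on it at 100%, and Wt1 and Osr1 lie below it.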

How the data were processed

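The deposited region lists of Pol II in 4 organs (1 list per organ) were analysed. The submitters' processing notes name Bowtie2 2.2.8, HOMER 4.8 and the build mm10. Per the file headers, the findPeaks program of HOMER was run in histone style, naming no control library, and joined windows of 500 bp that passed a Poisson p threshold of 0.001. The deposited signal is the tags of a region after scaling each list to 10000000. The deposited score is the caller's own and was used in 1 alternative, and the deposited ratio (clonal fold change) was not used. For reads matching several places, the handling was not given in the sources used here.

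Gene spans came from a table of GRCm38.p6, and starts from a RefSeq promoter table, which placed 17492 of 21887 protein-coding genes and 8 of the 10 members. Covered percent is the share of the span inside regions, and tags per kb of span share a region's tags by overlap. Region lengths are as deposited, and positions are printed as deposited. Calls used 50% of the span, a window of 1 kb and flanks of 50 kb. The rule for named genes takes all members, genes under a member's region, nearest neighbours, 3 nearest profiles per member and up to 3 genes per list, highest kidney cover first. Genes named beyond it, the first-10-kb, margin and whole-promoter measures were chosen after values were seen. The members and lists were chosen with earlier results of these data known. A planned comparison of the Pax2 and Pax8 proteins was not run, since no protein sequences were used here. Some genes of the lists are counted but not reported here by name. Interval code was tested on 2000 simulated queries, of which 100% equalled counts base by base. Computing used Python 3.11.15, pandas 2.3.3 and scipy 1.17.1. Alternatives were subsets of regions by score, by at least 10 tags and by equal numbers, other call levels (25% and 75%), windows, flanks and overlaps.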

Additional observations from a re-analysis of the deposited data

How the results depend on the processing

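With n = 1 per organ no replicate could be left out. No paired analysis was possible because each organ has 1 list and no result comes from a test. Of 76 counts recomputed under the alternatives 51 moved by at most 1.5 times. The 25 others follow. With the top-scoring 50% of each list, the genes at 50% cover numbered 0 in heart, 3 in kidney and 1 in liver, those with a region at the start 0 in heart, those with a region in the span 2 in liver, and the flank regions 5 in heart, 13 in kidney and 2 in lung. With regions of at least 10 tags the flank regions were 7 in liver, 19 in kidney and 3 in lung. Taking equal numbers of regions left 21 in the kidney flanks, 6 in heart and 3 in lung. Calling genes at 25% gave 1 in lung, and at 75% 0 in heart and 1 in liver. A window of 500 bp left 1 gene with a region at the start in lung. Flanks of 25 kb held 6 regions in heart, 18 in kidney and 5 in lung, and flanks of 100 kb 43 in liver, 61 in kidney, 14 in lung and 19 in heart. These alternatives use fewer regions, or another width or level. Covered percent of single genes kept its side of 50% in 154 recomputed values and lost it in 6. With the top-scoring 50% these were Lhx1 in heart (0%), Pax2 (43.9%), Tfap2b (23.2%) and Sall1 (0%) in kidney, and Sall1 in liver (0%). Lhx1 in heart did so also with 5 kb added on both sides (31.7%). Tags per kb of span left their counting interval in 32 recomputed values and stayed within it in 128. Of the 32, 15 were higher per kb of whole regions, 13 were lower with the top-scoring 50%, 2 with regions of at least 10 tags and 2 with equal numbers. Pax8, Emx2 and Lhx1 in kidney did not change sides under any of the 4 alternatives to the regions and span.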

Other observations

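Among 29 paralogs of the 10 genes 6 reached 50% cover in kidney, a share near the 21.1% of all protein-coding genes. Heart and lung held 3 each and liver 2. The median covered percent was 8.53% in kidney, 2.53% in heart, and 0% in both liver and lung, and 7 paralogs had no region in any list. Osr2 was covered over 100% in kidney, 44.3% in liver, 62.2% in heart and 74.1% in lung, while Osr1 had no kidney region. Emx1, the relative of Emx2, was at 90.99% in kidney and at 0% in the other lists.

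Besides Emx1, 3 paralogs reached 50% in kidney alone, a pattern met by 3.52% of all genes. Pax6, known from the eye and pancreas, was at 55.2% in kidney and at 2.48% to 4.01% in the other lists. Lhx2 was at 57.9% in kidney and at 2.53% to 7.01% elsewhere, and Lhx9 at 58.6% in kidney and at 12.5% to 25.5% elsewhere. No difference was tested, since each organ has 1 list.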
